A study of Mus musculus with 4 samples.

Results

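The genes of the hnRNP, snRNP and core spliceosome families were examined in B16F10 cells with reduced lamin A/C. The set took every gene symbol of the count matrix that begins with Hnrnp, Snrp, Sf3a, Sf3b, U2af, or with Prpf or Lsm followed by a digit, and left out 1 of the 70 matching symbols by rule. It held 69 of 24421 gene symbols, of which 63 passed the filter on low counts, out of 9150 genes tested in all. They are called splicing genes here, although the symbols also take in proteins with other roles, such as Lsm14a. B16F10 is a melanoma cell line from C57BL/6 mice. Cells of both groups were transduced with lentivirus and selected in puromycin. The shControl cells (n = 2 libraries) carried an empty control vector, which the study lists without a hairpin. The shLmna cells (n = 2 libraries) carried a vector encoding a short hairpin RNA designed against exon 8 of Lmna. This gene encodes the nuclear lamina proteins lamin A and C. Each group is a single selected line made with 1 vector, so other differences between the lines cannot be told apart from the hairpin. Effects of carrying any hairpin cannot be told apart from those of reduced Lmna either. RNA was profiled by bulk MARS-seq, which reads transcripts at their 3′ ends.

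Introns are removed from pre-mRNA by the spliceosome, which is built from small nuclear ribonucleoproteins (snRNPs). Each of the U1, U2, U4 and U5 snRNPs holds an RNA clasped by a ring of Sm proteins, while U6 carries a related ring of LSm proteins. SF3a and SF3b belong to the U2 snRNP and, with U2AF, help to define the branch point and the 3′ splice site. PRPF proteins include factors that drive the assembly and catalysis of the spliceosome. The hnRNPs coat nascent RNA, and many of them repress or promote the use of nearby splice sites.

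Library totals were 3262632 and 3808843 counts in shControl 1 and 2 and 2494880 and 3657167 in shLmna 1 and 2. The targeted gene, Lmna, fell by 83.6%, from 2826 and 2684 counts in the control libraries to 331 and 480 with the hairpin (log2 fold change -2.61, SE 0.142, edgeR adjusted p 7.93e-06). Melanocyte and melanoma markers summed to between 20766 and 25513 CPM (counts scaled to a common library total) per library. The list was uneven, and Tyr was nearly absent, reaching at most 7 counts per library (0.268 to 1.91 CPM). Sox10 and Mitf were lower in each shLmna library than in either control. Pmel, Mlana and Slc45a2 were higher by the same comparison, as was Tyr at its few counts, and Dct and Tyrp1 overlapped. Fibroblast, endothelial, leukocyte and epithelial markers each summed to at most 7.23 CPM, with 3 of 6, 2 of 4, 4 of 5 and 1 of 4 genes at 0 in every library.

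Promoters of 4 genes are shown as examples. Each gene passed the test and holds at least 2 copies of a motif within 150 bases before its RefSeq start. These motifs are common in promoters of the set. The genes were picked by hand after their values were seen, and copies in the other passing genes are not given. Whether either motif goes with the direction of change was not tested. Hnrnpk and Hnrnpc were lower in shLmna, and Sf3b6 and Snrpb2 were higher. Sequences are from RefSeq on GRCm38.p6, written 5′ to 3′ along the gene's strand. They lie at chr13:58402118-58402267 (minus strand, Hnrnpk), chr14:52104022-52104171 (minus strand, Hnrnpc), chr12:4817458-4817607 (plus strand, Sf3b6) and chr2:143062919-143063068 (plus strand, Snrpb2). These windows end at the RefSeq start. By the GENCODE gene positions given further below, the whole Hnrnpk window and part of each other window lie inside the gene. The Snrpb2 motifs and the last Sf3b6 motif also lie there. Capitals mark CCAAT or its reverse complement ATTGG in the first pair, and CCGGAA or its reverse complement TTCCGG in the second pair.
Hnrnpk: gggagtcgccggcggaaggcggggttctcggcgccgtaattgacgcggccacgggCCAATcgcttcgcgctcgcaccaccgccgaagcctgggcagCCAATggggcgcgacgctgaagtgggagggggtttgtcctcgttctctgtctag
Hnrnpc: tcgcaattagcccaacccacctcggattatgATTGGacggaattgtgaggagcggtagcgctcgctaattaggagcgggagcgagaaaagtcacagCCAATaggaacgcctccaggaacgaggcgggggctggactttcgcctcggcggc
Sf3b6: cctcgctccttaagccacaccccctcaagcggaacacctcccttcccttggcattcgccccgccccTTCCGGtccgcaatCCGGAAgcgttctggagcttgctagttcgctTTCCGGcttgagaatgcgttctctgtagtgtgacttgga
Snrpb2: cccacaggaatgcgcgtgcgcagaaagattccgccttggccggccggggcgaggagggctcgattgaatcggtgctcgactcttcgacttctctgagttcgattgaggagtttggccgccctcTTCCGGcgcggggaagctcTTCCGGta

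A promoter of 300 bases (250 before to 50 after the start) was listed for 57 of the 69 genes, in 77 windows. CCGGAA was found on either strand in 37.7% of these windows, against 14.9% of the 32851 promoter windows of all genes. CCAAT was found in 50.6% against 37.4%, and GGCGGG, the core of the GC box, in 70.1% against 35.3%. Within the set, CCAAT and GGCGGG were more frequent in the 26 hnRNP windows (65.4% and 88.5%) than in the 51 other windows (43.1% and 60.8%), while CCGGAA stood at 30.8% and 41.2%. These windows came from 17 hnRNP genes and 40 other genes, so some genes count more than once. By gene, CCAAT was in 13 of 17 and 18 of 40, GGCGGG in 16 and 27, and CCGGAA in 5 and 20. None of these 3 motifs contains another on either strand. The matches are descriptions of sequence, and binding was not measured.

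To ask whether expression of splicing genes differed after lamin A/C knockdown, shLmna was compared with shControl over all tested genes. In the whole set, 8 of the 63 tested genes were lower in shLmna (12.7%) and 7 were higher (11.1%), at an edgeR quasi-likelihood adjusted p under 0.05, and 48 did not pass. Of all tested genes 9.74% were lower and 5.48% were higher by the same test, so the share of lower genes in the set was near the background. When a log2 fold change over 1 in size and a mean normalized count over 5 were also required, 4 genes were lower (Lsm14a, Hnrnph1, Hnrnpdl and Hnrnpul2) and 3 were higher (Hnrnpa0, Sf3b6 and Prpf39), against 5.88% and 1.76% of all tested genes. The libraries of the groups did not overlap for 39 genes of the set (61.9%) and for 60.1% of all tested genes. The summed level of the set was 12279 and 11992 CPM in shControl and 11753 and 12277 CPM in shLmna, and these ranges overlapped. The median log2 fold change was 0.05 in the set and -0.00107 over all tested genes. In bulk libraries, less RNA per cell and fewer cells that express a gene cannot be told apart.

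**Figure D1:**
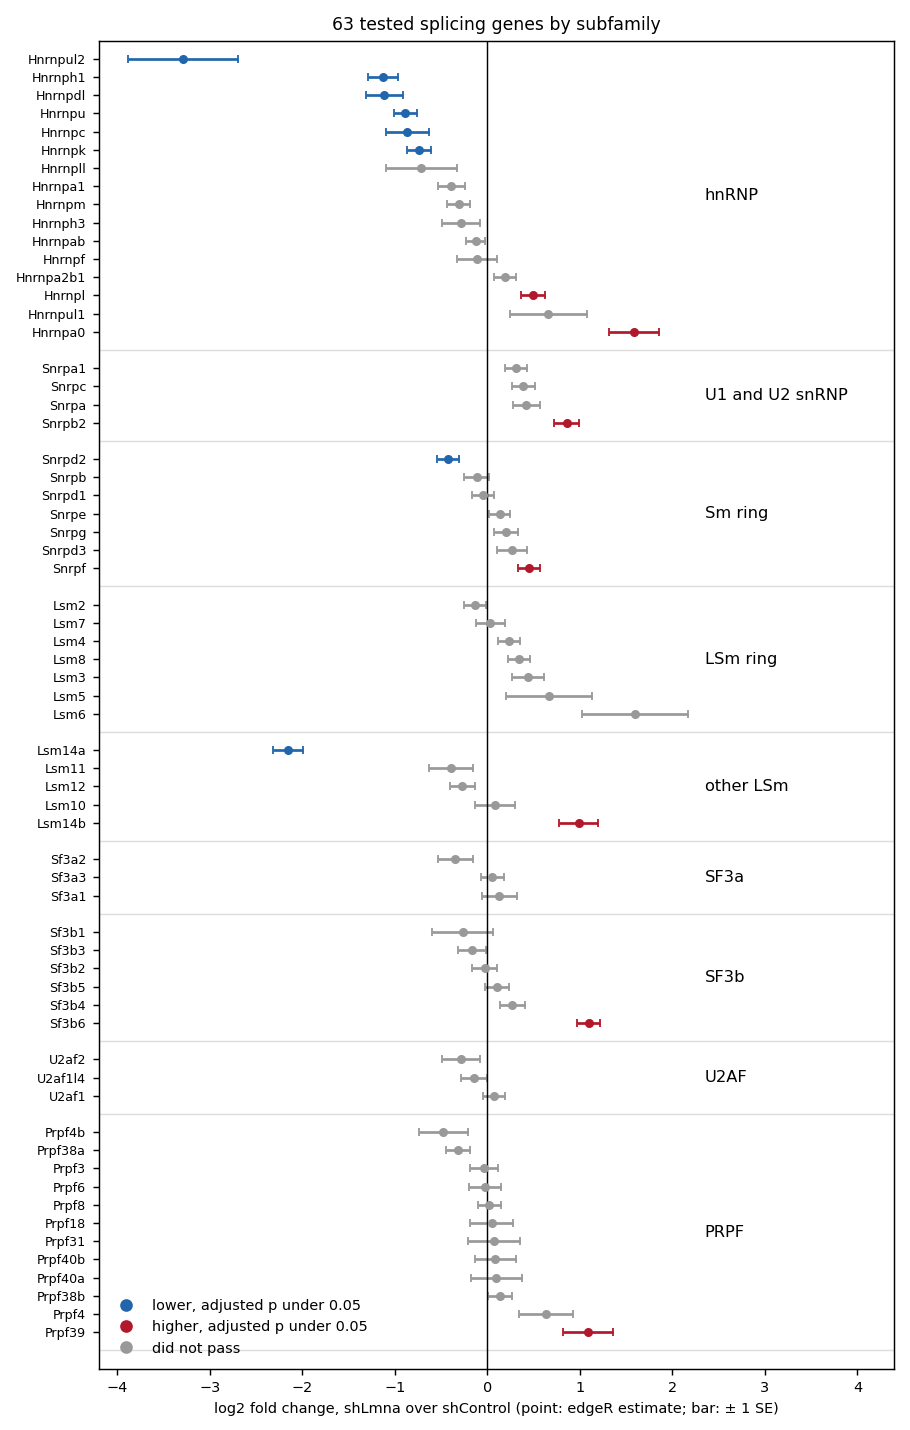
Log2 fold change of shLmna over shControl (x axis) for each of the 63 tested splicing genes, grouped by subfamily (y axis). Points are edgeR estimates and bars are ± 1 SE. Blue points (8 genes, 6 of them hnRNPs) were lower and red points (7 genes) were higher at an adjusted p under 0.05, and grey points did not pass.

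Calls were then counted by subfamily. Among hnRNP genes 6 of 16 tested were lower (37.5%) and 2 were higher (12.5%), with a median log2 fold change of -0.35. Among the other 47 tested genes 2 were lower (4.26%) and 5 were higher (10.6%), with a median of 0.08. Of all tested genes 9.74% were lower and 5.48% were higher. No test was made of the difference between these subsets. Summed hnRNP levels were 4146 and 4049 CPM in shControl and 3507 and 3619 CPM in shLmna, without overlap. Of single tested genes, 60.1% also had groups without overlap. A large part of these sums was Hnrnpab, which did not pass (1912 and 1821 CPM in shControl, 1662 and 1756 CPM in shLmna).

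Hnrnpu encodes hnRNP U (scaffold attachment factor A), which binds nascent RNA and chromatin. Its level was 263 and 286 CPM in shControl and 151 and 146 CPM in shLmna, so that both shLmna libraries lay well below the controls. The fall was 45.8% (log2 fold change -0.88, SE 0.121, edgeR adjusted p 0.00112). Hnrnpu lies at chr1:178321108-178337797 on the minus strand (GRCm38, as are the gene positions that follow). Hnrnpul2, which encodes a relative of hnRNP U, read 14.9 and 19.5 CPM in shControl (48 and 73 counts) and 0 and 3.0 CPM in shLmna (0 and 11 counts). The groups did not overlap, and the fitted log2 fold change was -3.29 (SE 0.597, edgeR adjusted p 0.00569). With 1 library at 0 this size is loosely set. It was -8.77 without shLmna 2 and -2.51 without shLmna 1, and the DESeq2 adjusted p was 0.344. Hnrnpul2 lies at chr19:8820010-8834143 on the plus strand. Hnrnpul1, a further relative, read 7.43, 3.48, 9.89 and 7.36 CPM in the order shControl 1, shControl 2, shLmna 1, shLmna 2 and did not pass (log2 fold change 0.66, 95% interval -0.28 to 1.59).

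Hnrnpk encodes a protein that binds cytosine-rich RNA and DNA through KH domains, and its RefSeq promoter window holds the CCAAT motifs printed above. The gene read 382 and 414 CPM in shControl and 220 and 255 CPM in shLmna. This was a fall of 40.2% (log2 fold change -0.74, SE 0.130, edgeR adjusted p 0.00462), with no overlap between groups. Without shLmna 1 the log2 fold change was -0.64 with an adjusted p of 0.0767. Hnrnpk lies at chr13:58391142-58403343 on the minus strand. Hnrnpc, whose product binds uridine tracts and measures the length of nascent RNA, read 47.1 and 51.9 CPM in shControl and 20.2 and 33.2 CPM in shLmna. The shLmna libraries differed from each other but stayed below both controls (log2 fold change -0.86, SE 0.230, edgeR adjusted p 0.0320). The call was lost without shLmna 1 (log2 fold change -0.57, adjusted p 0.208) and in DESeq2 (adjusted p 0.105). Hnrnpc lies at chr14:52073377-52104028 on the minus strand. Of the 31-base stretches of its counted 3′ end, 5.05% also occur, directly or as the reverse complement, in transcripts of other genes. This makes its counts less certain.

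Hnrnph1 encodes a protein that binds G-rich RNA. It read 97.6 and 110 CPM in shControl and 41.1 and 52.9 CPM in shLmna, a fall of 54.3% (log2 fold change -1.13, SE 0.161, edgeR adjusted p 0.00146). The groups did not overlap, and 14.9% of its 31-base stretches were shared, with Setd1b and a processed pseudogene. Hnrnph1 lies at chr11:50376990-50386528 on the plus strand. Its relatives Hnrnpf and Hnrnph3 did not pass (log2 fold change -0.11, interval -0.60 to 0.38, and -0.28, interval -0.75 to 0.18), and 33.7% of the stretches of Hnrnpf were shared. Hnrnpdl, which encodes a protein that binds AU-rich RNA, read 44.9 and 57.6 CPM in shControl and 25.7 and 22.1 CPM in shLmna. Both shLmna libraries were below the controls (log2 fold change -1.11, SE 0.201, edgeR adjusted p 0.00564). Without shLmna 2 the value was -0.98 with an adjusted p of 0.0857. Hnrnpdl lies at chr5:100033577-100039664 on the minus strand.

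The 2 hnRNP genes that were higher belong to different branches of the family. Hnrnpa0, an A/B-type hnRNP that binds AU-rich elements in mRNA, read 23.2 and 12.0 CPM in shControl and 52.6 and 52.3 CPM in shLmna. The spread lay in the control libraries, and both shLmna libraries were above them (log2 fold change 1.59, SE 0.269, edgeR adjusted p 0.00398). The log2 fold change ranged from 1.17 without shControl 2 to 2.12 without shControl 1, and without shLmna 2 the adjusted p was 0.0576. Hnrnpa0 lies at chr13:58125879-58128556 on the minus strand. Hnrnpl, whose product binds CA repeats, read 177 and 157 CPM in shControl and 250 and 222 CPM in shLmna (log2 fold change 0.50, SE 0.128, edgeR adjusted p 0.0282). The groups did not overlap, but the adjusted p was 0.0678 without shControl 2, 0.220 without shLmna 1 and 0.105 without shLmna 2. Of its 31-base stretches 13.0% were shared with a processed pseudogene. Hnrnpl lies at chr7:28808541-28822266.

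The most abundant hnRNP transcripts did not pass. Hnrnpab read 1912 and 1821 CPM in shControl and 1662 and 1756 CPM in shLmna (log2 fold change -0.13, 95% interval -0.36 to 0.10, edgeR adjusted p 0.445), with 55.1% of its stretches shared. Hnrnpa2b1, whose product binds RNA as a partner of hnRNP A1, read 432 and 446 CPM in shControl and 483 and 522 CPM in shLmna (log2 fold change 0.19, interval -0.07 to 0.46, edgeR adjusted p 0.310), with 7.94% of stretches shared. Hnrnpa1, a repressor of splice sites, had a log2 fold change of -0.39 (interval -0.72 to -0.06) and an adjusted p of 0.110, with 19.9% of stretches shared. Hnrnpm had -0.31 (interval -0.59 to -0.03) and 0.126. Both intervals are unadjusted and lie below 0, although neither gene passed. Hnrnpll, a relative of hnRNP L, read 26.6 and 75.5 CPM in shControl and 28.1 and 34.3 CPM in shLmna, and the controls differed too widely for a call (log2 fold change -0.71, interval -1.57 to 0.15). The remaining 3 members were below the filter. In shControl against shLmna, Hnrnpa3 had 2 and 3 against 0 and 3 counts. Hnrnph2 had 4 and 13 against 4 and 5, and Hnrnpr had 2 and 0 against 0 and 2. A difference was not detectable at these counts, which cover only the annotated 3′ end.

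**Figure D2:**
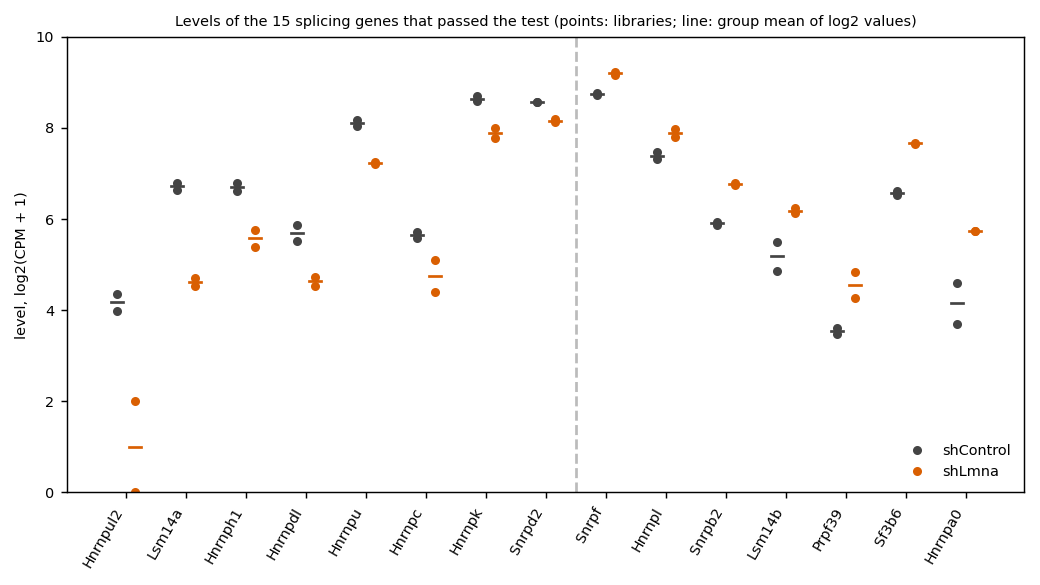
Level of each of the 15 splicing genes that passed the test, as log2(CPM + 1) (y axis), in each library of shControl (grey) and shLmna (orange). Points are libraries (n = 2 per group), short lines are group means, and the dashed line divides the 8 lower from the 7 higher genes. The shLmna points lie on one side of both shControl points for every gene shown, and the group means are closest for Snrpd2 and Snrpf.

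Of the 4 Snrp-named genes of the set for proteins particular to the U1 or U2 snRNP, only Snrpb2 passed the test, and it was higher. All 4 read higher in both shLmna libraries than in both controls, where 60.1% of all tested genes did not overlap in either direction. Their summed levels were 475 and 480 CPM in shControl and 616 and 672 CPM in shLmna. These are not all such genes. Snrnp70 (U1-70K), from the further pathway list, read 188 and 192 CPM in shControl and 197 and 174 CPM in shLmna (log2 fold change -0.03, edgeR adjusted p 0.885). SF3a and SF3b, also of the U2 snRNP, are given below. Snrpb2 encodes the U2 B″ protein, which binds a stem-loop of U2 RNA, and its RefSeq promoter window holds the CCGGAA motifs printed above. It read 57.9 and 60.5 CPM in shControl and 109 and 106 CPM in shLmna (log2 fold change 0.86, SE 0.133, edgeR adjusted p 0.00231). Replicates were within a few CPM of each other in both groups. Snrpb2 lies at chr2:143063039-143072853 on the plus strand. Its partner Snrpa1 (U2 A′) read 196 and 186 CPM in shControl and 233 and 241 CPM in shLmna (log2 fold change 0.31, edgeR adjusted p 0.106). Snrpa (U1 A) read 98.2 and 108 against 121 and 154 CPM (0.42, adjusted p 0.0887). Snrpc (U1 C), which helps U1 to recognise the 5′ splice site, read 123 and 125 against 153 and 171 CPM (0.39, adjusted p 0.0650). All 3 miss the threshold, although Snrpc passed in 8 of the 14 alternatives tried, and for each of them 12.3% to 58.2% of the counted stretches were shared with other genes.

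In the Sm ring, 1 of 7 tested genes was higher and 1 was lower. Snrpf (Sm F) read 436 and 420 CPM in shControl and 602 and 570 CPM in shLmna (log2 fold change 0.45, SE 0.117, edgeR adjusted p 0.0286). Snrpd2 (Sm D2) read 382 and 381 CPM in shControl and 291 and 278 CPM in shLmna, a fall of 25.5% (log2 fold change -0.43, SE 0.118, edgeR adjusted p 0.0381). Groups did not overlap for either gene, yet both calls were lost without shLmna 1 (adjusted p 0.224 and 0.184) or without shLmna 2 (0.145 and 0.248). Snrpd2 was also lost with upper quartile scaling (0.0517) and with library totals only (0.0520). Most of the counted 3′ end of Snrpf (92.1% of stretches) was shared, with processed pseudogenes, with Ccdc38 (3, 0, 0 and 0 counts) and with a lincRNA, the last pair overlapping it on the opposite strand. Snrpd2 shared 5.88%. Snrpf lies at chr10:93583029-93589706 and Snrpd2 at chr7:19149722-19153542. Snrpb, which encodes the core proteins Sm B and B′, read 948 and 996 against 793 and 1002 CPM (log2 fold change -0.12, adjusted p 0.609). Snrpd1 read 741 and 650 against 696 and 650 CPM (-0.05, adjusted p 0.834). Of their stretches 6.91% and 22.7% were shared. Summed Sm levels were 3278 and 3135 CPM in shControl and 3218 and 3360 CPM in shLmna and overlapped. Snrpn, the neuronal counterpart of Snrpb, had 0 counts in all 4 libraries. This allows up to 3 counts, or 0.803 to 1.19 CPM, per library in the counted 3′ end.

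In the LSm ring, which binds the 3′ end of U6 RNA in the nucleus and takes part in mRNA decay in the cytoplasm, none of 7 tested genes passed. Of these, 6 had a positive log2 fold change, as had 49.9% of all tested genes. An unadjusted p under 0.05 on the higher side was found for 3 (Lsm3, with 24.7% of stretches shared, Lsm6 and Lsm8) and for 13.6% of all tested genes. Summed LSm ring levels were 1047 and 1093 CPM in shControl and 1223 and 1285 CPM in shLmna. DESeq2 called none of the 7 and limma on the batch-corrected values called 4 higher. Lsm4 read 453 and 441 against 530 and 523 CPM (log2 fold change 0.24, edgeR adjusted p 0.205). Lsm8, the subunit that marks the nuclear ring, read 189 and 204 against 240 and 257 CPM (0.34, adjusted p 0.0903). Lsm6 had the largest value, 1.60 (SE 0.571, adjusted p 0.0919), at only 3 and 5 counts against 9 and 13. Lsm1, the subunit that marks the cytoplasmic ring, had 0 counts in all libraries, with the same limit as Snrpn. Counts cover only the annotated 3′ end, so 0 counts do not show that a gene is silent.

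The pair of Lsm14 paralogs moved in opposite directions. Lsm14a encodes an mRNA-binding protein of processing bodies that represses translation and is not part of the spliceosome. It read 98.5 and 110 CPM in shControl and 24.9 and 22.1 CPM in shLmna, a fall of 77.6% (log2 fold change -2.16, SE 0.161, edgeR adjusted p 2.59e-05). Its paralog Lsm14b read 44.3 and 28.1 CPM in shControl and 74.4 and 68.7 CPM in shLmna (log2 fold change 0.99, SE 0.208, edgeR adjusted p 0.0114). For both genes the groups were separate. Without shLmna 1 or shLmna 2 the adjusted p of Lsm14b was 0.0860 or 0.0931, while Lsm14a passed in every alternative tried, with an adjusted p of at most 0.00307. Lsm14a lies at chr7:34344646-34393315 on the minus strand and Lsm14b at chr2:180024987-180035465 on the plus strand. Lsm12 read 83.9 and 81.4 against 68.8 and 68.1 CPM (log2 fold change -0.27, adjusted p 0.209). Lsm10, a U7 snRNP protein of histone mRNA processing, read 23.8 and 32.1 against 31.6 and 28.1 CPM (0.08, adjusted p 0.842).

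Among the 9 tested genes of SF3a and SF3b, 1 passed. Sf3b6 encodes p14, the SF3b subunit that lies against the branch point adenosine, and its RefSeq promoter window holds the 3 CCGGAA motifs printed above. It read 90.8 and 97.5 CPM in shControl and 204 and 199 CPM in shLmna, with replicates close together and the groups far apart (log2 fold change 1.09, SE 0.122, edgeR adjusted p 0.000332). Sf3b6 lies at chr12:4817544-4827659 on the plus strand. The rest of SF3b had log2 fold changes from -0.27 to 0.27. Sf3b5 read 418 and 383 against 462 and 399 CPM (0.10, adjusted p 0.638) and Sf3b2 read 248 and 265 against 277 and 227 CPM (-0.03, adjusted p 0.915). Sf3b1, the scaffold of the complex, read 10.2 and 9.91 against 5.93 and 10.4 CPM, too few counts for a close estimate (log2 fold change -0.27, interval -1.01 to 0.47). In SF3a, Sf3a2 read 223 and 299 against 170 and 240 CPM (-0.35, adjusted p 0.252), and Sf3a3 read 143 and 129 against 143 and 139 CPM (0.05, adjusted p 0.822). Both share 5% or more of their stretches (7.94% and 9.69%).

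None of the 3 U2AF genes passed edgeR's quasi-likelihood test, 0 had an unadjusted p under 0.05, and DESeq2 and limma also called 0. U2af2, which recognises the polypyrimidine tract, read 368 and 296 CPM in shControl and 208 and 335 CPM in shLmna, with overlapping groups (log2 fold change -0.29, interval -0.75 to 0.17, edgeR adjusted p 0.389). U2af1, which recognises the AG at the 3′ splice site, read 155 and 160 against 160 and 170 CPM (0.07, interval -0.20 to 0.33, adjusted p 0.750). Their counts are less certain because 28.1% and 66.9% of their stretches were shared.

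Of 12 tested PRPF genes only Prpf39 passed. It encodes a protein associated with the U1 snRNP and read 11.2 and 10.2 CPM in shControl and 27.7 and 18.3 CPM in shLmna (log2 fold change 1.09, SE 0.275, edgeR adjusted p 0.0261). Its groups did not overlap, but the call was lost without shLmna 1 (0.78, adjusted p 0.202) and in DESeq2 (adjusted p 0.160). Prpf39 lies at chr12:65036333-65063386 on the plus strand and overlaps Fkbp3 on the other strand, with 55.6% of its stretches shared. Fkbp3 had 1758 and 1976 against 1199 and 1660 counts, and whether the counting used strand is not stated. Prpf8, the scaffold of the catalytic centre, read 357 and 386 against 356 and 396 CPM (0.02, interval -0.26 to 0.30, adjusted p 0.934). Prpf38a read 127 and 134 against 111 and 98.6 CPM (-0.32, adjusted p 0.127), with 8.87% of stretches shared. The summed PRPF level was 828 and 843 CPM in shControl and 827 and 843 CPM in shLmna. Prpf19, a ubiquitin ligase of the spliceosome, was below the filter at 6 and 2 against 0 and 3 counts.

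**Figure D3:**
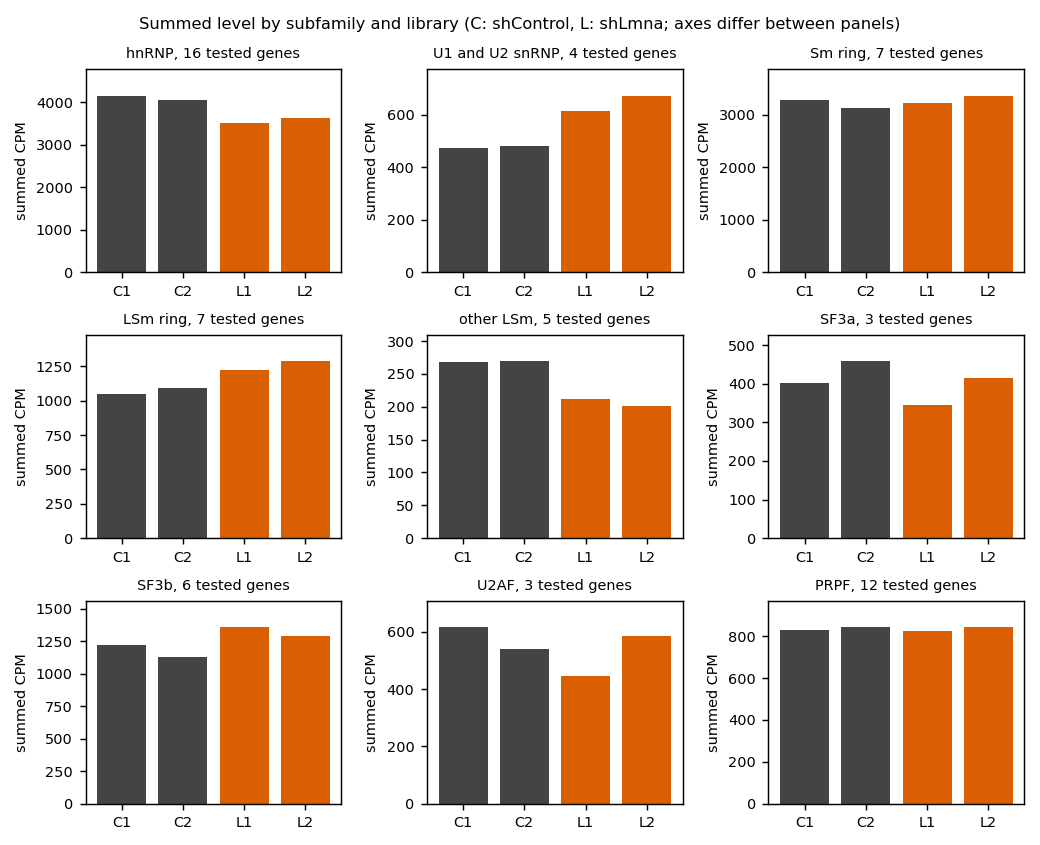
Summed CPM of the tested genes (y axis, from 0) in each library (x axis, C1 and C2 for shControl, L1 and L2 for shLmna), with a panel per subfamily. Both shLmna bars are below both shControl bars for hnRNP and other LSm genes and above them for the U1 and U2 snRNP, LSm ring and SF3b genes. Of single tested genes, 60.1% also had groups without overlap. The U1 and U2 snRNP panel holds Snrp-named genes only.

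Other genes of the pathway were taken from a list of 53 spliceosome, snRNP assembly and SMN complex genes, of which 50 were tested. Of these, 4 were lower (8%) and 3 were higher (6%), against 9.74% and 5.48% of all tested genes, and the median log2 fold change was 0.03. The lower genes were Dhx15, Smndc1, Rnpc3 and Sf1. Dhx15, the helicase that takes spent spliceosomes apart, had 415 and 631 control counts against 13 and 15 (log2 fold change -5.03, edgeR adjusted p 6.28e-06). Smndc1 (SPF30), which acts in spliceosome assembly, had 181 and 280 counts against 25 and 41 (-2.63, adjusted p 5.98e-05). Rnpc3, a protein of the minor spliceosome, had 26 and 49 counts against 0 and 1 and was at least 10.6-fold lower, taking 3 counts per shLmna library as the floor, although 47.9% of its stretches were shared with Amy1. Sf1, the branch point binding protein, passed at a log2 fold change of -0.50 (adjusted p 0.0370). The higher genes were Ppih (0.88, adjusted p 0.0210), Aqr (0.51, adjusted p 0.0467) and Wdr77 (0.79, adjusted p 0.0499), and of Ppih 25.6% of stretches were shared. Each of these 3 calls, and that of Sf1, was lost without shLmna 1 and without shLmna 2, with adjusted p values from 0.0772 to 0.313. Those of Sf1, Aqr and Wdr77 were also lost without shControl 2 (0.0623 to 0.0801), and that of Wdr77 without shControl 1 (0.0723). DESeq2 called none of the 3 higher genes (adjusted p 0.175 to 0.403). Smn1 did not pass (-0.41, adjusted p 0.0619).

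Base composition of the counted 3′ end was set beside the results. Among all tested genes with a GC content under 38% in their last 1000 transcript bases, 32.3% were lower and 7.98% were higher, with a median log2 fold change of -0.29. From 38% to 42% GC, 8.62% were lower and 9.19% were higher, with a median of 0.07, and at 50% and over 6.80% were lower and 3.28% were higher. The hnRNP genes had a median GC content of 40.1%, against 46.6% in the other tested genes of the set and 46.9% over every tested gene. Under 38% GC there were 5 tested hnRNP genes, of which 2 were lower (Hnrnpu, 34.6%, and Hnrnpk, 34.7%) and 1 was higher. Of the 6 from 38% to 42%, 4 were lower (Hnrnpc, 38.9%, Hnrnph1, 39.2%, Hnrnpdl, 39.8%, and Hnrnpul2, 40.8%). None of the 5 at or over 42% was lower. Of the 11 other genes of the set under 42%, 1 was lower (Lsm14a, 35.7%) and 3 were higher (Prpf39, 36.0%, Snrpb2, 38.8%, and Snrpf, 41.3%). In the further pathway list, the lower genes Dhx15 (36.6%), Smndc1 (34.7%) and Rnpc3 (27.1%) were also under 38%, and Sf1 was at 48.3%. Its higher genes were at 46.3% (Ppih), 45.7% (Aqr) and 39.6% (Wdr77).

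With an offset for GC content in the same fit, 13 of the 15 genes passed in the same direction. The hnRNP genes counted 5 lower and 2 higher. Hnrnpk no longer passed (log2 fold change -0.38, adjusted p 0.0714), nor did Snrpf (0.38, adjusted p 0.0571), and the value of Hnrnpu was -0.51 in place of -0.88. Hnrnph1 (-1.16), Hnrnpdl (-1.16), Hnrnpul2 (-3.36), Hnrnpc (-0.88), Hnrnpa0 (1.72) and Sf3b6 (1.02) were near their values without the offset. What GC content contributes beyond this offset was not tested.

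**Figure D4:**
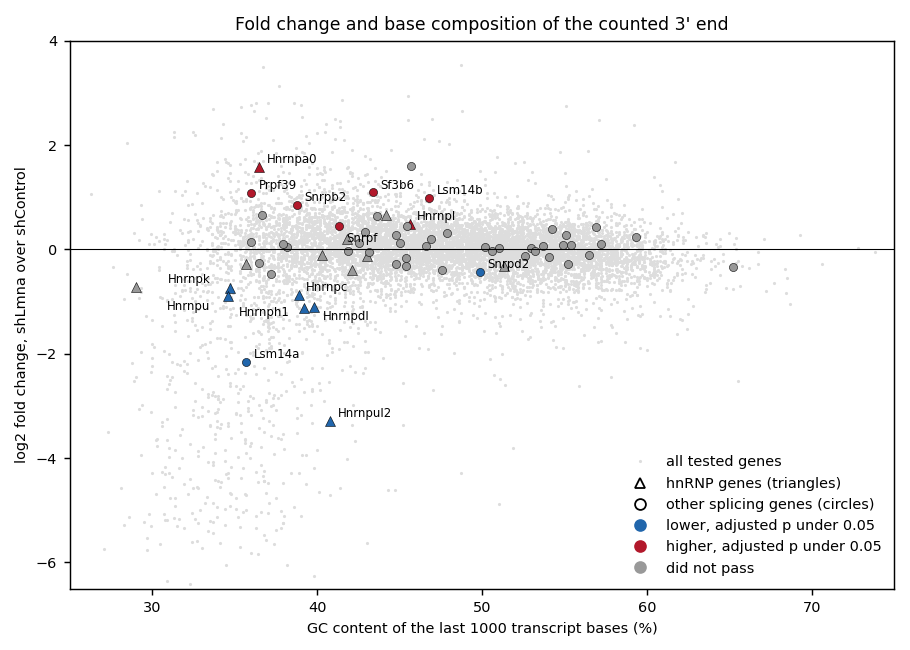
Log2 fold change of shLmna over shControl (y axis) against GC content of the last 1000 transcript bases in percent (x axis). Small grey points are all tested genes, and 19 of them lie outside the axes. Triangles are hnRNP genes and circles the other genes of the set, in blue (lower), red (higher) or grey (not passed). The blue triangles sit between 34.6% and 40.8% GC, 2 of them under 38%, where 32.3% of all tested genes were lower, and 4 from 38% to 42%, where 8.62% were lower.

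Across the 14 alternatives that were tried, all 15 genes that passed kept their direction. Their groups did not overlap, so leaving out a library could hardly reverse a direction. The other alternatives refit the same libraries, so the kept directions are not independent support. The 5 genes Hnrnpu, Hnrnph1, Lsm14a, Sf3b6 and Snrpb2 passed under every one of them. The number of lower hnRNP genes ran from 4 to 8, being 4 in DESeq2 and without shLmna 1, and the number of higher ones from 0 without shLmna 2 to 4 in limma on the batch-corrected values.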

How the data were processed

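RNA of B16F10 cells was measured in 4 bulk MARS-seq libraries, grouped by the sample titles. Per the study's methods and the labels, the authors trimmed reads with Cutadapt, aligned them to mm10 with STAR 2.4.2a and counted them with HTSeq over the last 1000 bases of RefSeq genes and 100 bases downstream, with UMI duplicates marked. The raw count matrix deposited by the authors was the input of the main test. Whether duplicates were already collapsed in it is not stated. They also deposited a signal per library (the count divided by a DESeq2 size factor), their own p-values, which were not used, and log2 values batch-corrected with ComBat, whose batches are not named. In each library 100% of the deposited signal values were whole multiples of 1 step. The tolerance was 0.01 at low counts and widened in proportion to larger ones, where the check shows little. The matrix held 1.08 to 1.09 times these recovered counts. All columns belonged to the 4 libraries.

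The main test was the quasi-likelihood test in edgeR 4.0.16 (R 4.3.3, TMM, default filterByExpr, group as the one term, two-sided), with p-values adjusted over 9150 genes by the Benjamini-Hochberg method. CPM values are TMM-scaled, and 95% intervals are unadjusted. Alternatives were other scalings, no filter, DESeq2 1.42.0, limma 3.58.1 on the batch-corrected log2 values, recovered counts, a replicate block, a GC offset (lowess, span 0.3) and leaving out each library. Replicates differed by more than sampling noise (chi-square per degree of freedom 6.96 in shControl and 3.91 in shLmna). No source says that they were separate cultures, so p-values measure spread between libraries, which may be technical. A floor of 3 counts covers counting error only.

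Genes named are those that passed, the 2 most abundant of each subfamily that did not pass, those below the filter, and the passing genes of the further pathway list. Others (Hnrnpa1, Hnrnpm, Hnrnpf, Hnrnph3, Hnrnpll, Hnrnpul1, Snrpa, Lsm3, Lsm6, Sf3b1, Snrnp70 and Smn1) were added after their values were seen. The members and lists were chosen with earlier results of these data known. Positions, GC content and shared 31-base stretches came from GENCODE M21 transcripts on GRCm38. Stretches were compared with transcripts, not with the genome, and 28 of the 63 tested genes shared 5% or more. A stretch counted as shared if it or its reverse complement occurred in a transcript of another gene. A GC value was found for 69 of 69 genes of the set. Promoters came from RefSeq. On simulated data for this comparison (9150 genes, 200 changed) the test recovered 69% of genes changed by 1 on the log2 scale. It recovered 94% of those changed by 2, and 6.32% of its calls were false. Whether these rates hold for the measured libraries, where 891 genes were lower and 501 were higher, was not tested.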

Additional observations from a re-analysis of the deposited data

How the results depend on the processing

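Of 462 alternative values of the 33 named splicing genes, 409 kept their direction and their side of the threshold. A further 21 no longer passed, 19 newly passed and 13 changed sign. Every sign change was in a gene that had not passed, and the groups of the passing genes did not overlap, which leaves little room for one. The lower and higher splicing genes (8 and 7) became 13 and 19 in limma on the batch-corrected log2 values, where fold changes are smaller and those past the limit fell from 4 and 3 to 0 and 0. The higher ones became 13 with the replicate block and GC offset together. Leaving out each library gave 5 to 10 lower and 3 to 9 higher genes, with 2 to 5 higher genes past the limit; the lowest counts came without shLmna 1, and 3 higher also without shLmna 2. With 3 libraries the lone one is assumed to vary like the other group. Over all tested genes (891 lower, 501 higher), DESeq2 gave 589 and 218, limma 1992 and 1784, and leaving out a library 414 to 1329 and 89 to 775. The further pathway list (3 higher) gave 0 in DESeq2, 5 in limma, 1 with the GC offset and 0 to 3 without a library.

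Whether same-numbered libraries were paired is not stated. Their deviations correlated at 0.0150 across 9150 genes, which does not exclude a pairing. The replicate block gave 1220 lower and 852 higher genes in all and, with the GC offset, 1150 and 928, and it changed none of the 15 calls. The sign changes were small. Sf3b2 went to 0.00141 with upper quartile scaling and 0.00395 with library totals. Ranges over the left-out libraries were -0.11 to 0.31 for Lsm10, -0.0448 to 0.10 for Prpf8, -0.0248 to 0.13 for Sf3a3, -0.17 to 0.12 for Sf3b2, -0.000835 to 0.22 for Sf3b5, -0.28 to 0.0483 for Snrpb, -0.14 to 0.052 for Snrpd1 and -0.67 to 0.0165 for U2af2. The cause of these changes was not tested. The 6 splicing genes below the filter had at most 13 counts in a library.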
